A study of Homo sapiens with 6 samples.

Results

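The transcripts of 10 enzymes that remove superoxide and peroxides were followed in HCT116 cells with and without oxaliplatin. They are the superoxide dismutases SOD1 and SOD2, catalase (CAT), the glutathione peroxidases GPX1, GPX2, GPX3, GPX4 and GPX8, and the peroxiredoxins PRDX1 and PRDX5. The genes were taken by symbol from a table of 27942 identifiers, in which they have 11 entries, because SOD2 is listed under 2 identifiers. The second SOD2 entry held 0 counts in all 6 libraries and was set aside. HCT116 is a human colorectal cancer cell line that carries wild-type APC and a mutated CTNNB1. One group of 3 libraries came from untreated cells (NT). The other group of 3 came from cells given the platinum drug oxaliplatin at 0.5 µM, the dose that the labels call its IC50, for 24 h (OXA). All cells grew in the same medium with serum, and each library was made from polyadenylated RNA of a single line, so the results describe this line at this dose and time. No source states whether replicates were separate cultures, and p-values therefore measure the spread between these libraries, which may be technical.

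Superoxide is formed when electrons leak from the respiratory chain or are passed to oxygen by NADPH oxidases. The superoxide dismutases turn it into hydrogen peroxide, SOD1 mainly in the cytosol and SOD2 in the mitochondrial matrix. Catalase then breaks hydrogen peroxide down in peroxisomes, glutathione peroxidases reduce peroxides with electrons from glutathione, and peroxiredoxins do so with electrons that mostly come from thioredoxin. Several glutathione peroxidases carry the amino acid selenocysteine in the active site, which is encoded by an in-frame TGA that would otherwise end the protein.

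The coding windows of the 5 glutathione peroxidase genes show this difference, since the active-site codon separates the selenium enzymes from GPX8. Each line gives 27 bases of the MANE Select coding sequence, 5′ to 3′, with the selenocysteine codon, or the codon at the aligned place in GPX8, in capitals.
GPX1: gtggcgtccctcTGAggcaccacggtc
GPX2: gtggcttcgctcTGAggcacaaccacc
GPX3: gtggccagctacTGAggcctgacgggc
GPX4: gtggcctcccagTGAggcaagaccgaa
GPX8: gtggccagtgacTGCcaactcacagac
GPX1, GPX2, GPX3 and GPX4 hold the TGA, at codons 49, 40, 73 and 73 of the transcripts used. GPX8, a membrane protein of the endoplasmic reticulum, holds the cysteine codon TGC at codon 79. The codons lie at chr3:49358132-49358134 on the minus strand (GPX1), chr14:64942607-64942609 on the minus strand (GPX2), chr5:151025469-151025471 on the plus strand (GPX3), chr19:1105403-1105405 on the plus strand (GPX4) and chr5:55161024-55161026 on the plus strand (GPX8). All are exonic coding positions of GRCh38 in GENCODE release 44.

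The libraries held 32979521 to 40967880 counts, so that a floor of 3 counts corresponds to 0.0732 to 0.091 CPM, where CPM is the count scaled to a common library total. The first NT library stood apart from the other two, with a chi-square per gene of 64.5 and 58.8 against them, whereas the remaining pairs of replicates lay between 15.1 and 23.1. Its deviation from the NT mean went with the GC content of the genes (r = -0.72 across genes, which are not independent replicates). For the other libraries this correlation ran from -0.44 in the first OXA library to 0.63 in the second NT library, with -0.10 in the third OXA library. Deviations are taken within a group, so the values of a group are not independent of each other. CDKN1A, a cell cycle inhibitor, and MDM2, a ubiquitin ligase, both known to respond to DNA damage, rose in OXA by 2.93 and 2.22 on the log2 scale (adjusted p = 0.000445 for both, edgeR). Of 8 epithelial markers, 7 had more than 3 counts in every library, and CDX1 had 0 in all, with a summed level of 71330 to 95986 normalized counts in NT and 101385 to 113729 in OXA. The sum was carried by the keratins KRT8 (39182 and 54402 on average in NT and OXA) and KRT18 (30144 and 37416). Over the 7 tested markers 3 were higher, 4 lower and 0 called in edgeR, with a median log2 fold change of -0.04. Once edgeR also fitted a term for replicate number (the block explained below), 2 markers were called higher and 1 lower. They were KRT8 at 0.50 (adjusted p = 0.0271), KRT18 at 0.32 (adjusted p = 0.0184) and CDH1 at -0.20 (adjusted p = 0.0408). Of all genes, 12.1% were called higher and 10.9% lower in that fit. The 9 markers of other cell types summed to 293 to 526 in NT and 418 to 504 in OXA. Of them, 3 had 3 counts or fewer in every library and 3 had more than 3 in every library. Most of the sum came from CD68 (183 and 212 on average in NT and OXA) and COL1A1 (175 and 215). The part of either marker list in the results that follow was not tested. In bulk RNA, fewer cells that express a gene and less RNA per cell cannot be told apart.

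Before treatment the enzymes differed widely in level. Per kilobase of the longest coding transcript, PRDX1, a cytosolic peroxiredoxin, was highest at 894 ± 118 CPM per kilobase (SD, n = 3), followed by SOD1 at 327 ± 21.4. PRDX5, found in mitochondria, peroxisomes and the cytosol, came next at 175 ± 40.9, close to GPX4, which reduces lipid hydroperoxides in membranes and was at 155 ± 47.1. The ranges of PRDX5 and GPX4 overlapped, so their order is not resolved. CAT at 45.3 ± 3.78 and GPX1, the widespread cytosolic glutathione peroxidase, at 35.2 ± 18 also overlapped. GPX8 followed at 14.4 ± 2.06, and its range overlapped that of GPX1. SOD2 was at 8.85 ± 0.719 on this scale, but its longest transcript measures 14167 bases. With the median length of its 11 coding transcripts, 917 bases, SOD2 was at 137 ± 11.1 and ranked 5 of 10, so its place in the order depends on which transcript is counted. With the length of the union of all exons, SOD1 was at 148 ± 9.69 and ranked below PRDX5 at 175 ± 40.9, their ranges overlapping.

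GPX2, known as the glutathione peroxidase of the gastrointestinal epithelium, and GPX3, the secreted form found in plasma, were barely detected in HCT116. GPX2 had 3, 1 and 0 counts in untreated cells and 0, 3 and 4 in treated cells, so no fold change was taken. CHURC1 overlaps GPX2 on the opposite strand with 1116 to 1602 counts, and since the strand setting of the counting was not given in the sources used here, the origin of these few GPX2 counts cannot be told apart. GPX3 had 2, 8 and 4 counts in NT and 9, 16 and 8 in OXA. The GPX3 groups touched at 8 counts, and with no filter on low counts its log2 fold change was 1.24 with an adjusted p of 0.368. Both genes were below the count filter, which left 8 of the 10 genes for testing.

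**Figure D1:**
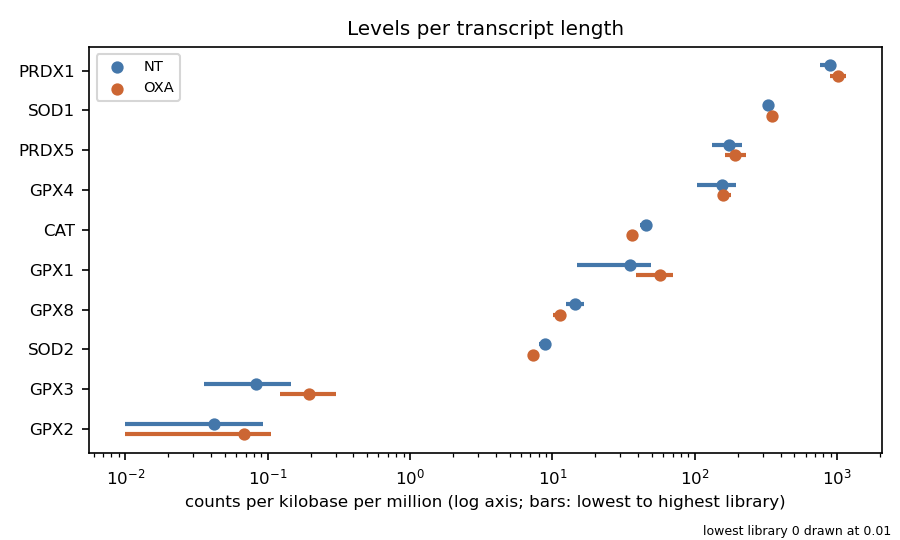
Level of the 10 genes in CPM per kilobase of the longest coding transcript, on a log axis, as the mean (point) and the range from lowest to highest library (bar) of 3 NT and 3 OXA libraries; a lowest library of 0 is drawn at 0.01. PRDX1 is highest and GPX2 and GPX3 are lowest in both groups, and CAT and GPX1 exchange places.

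Within each family, 1 gene held the largest share of the level per length. PRDX1 made up 54 ± 5.47% of the summed level of the 10 genes in NT. GPX4 made up 75.8 ± 2.87% of the glutathione peroxidase level in NT and 70.1 ± 5.14% in OXA, while GPX1 made up 16.3 ± 5.14% in NT and 24.7 ± 5.27% in OXA. Among 6 peroxiredoxin genes, PRDX1 held 47.6 ± 5.2% in NT and 49.6 ± 3.32% in OXA. On the longest-transcript scale, the order of the 10 genes in OXA differed from NT only where GPX1, at 56.6 ± 16.2, stood above CAT, at 36.4 ± 0.48. With median transcript lengths GPX1 was above CAT in both groups, and with MANE Select lengths GPX4 and PRDX5 also exchanged places. In OXA the ranges of PRDX5 and GPX4 still overlapped, and those of the other neighbours did not.

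The main question was which of these transcripts differed between OXA and NT. By edgeR's quasi-likelihood test over 13727 genes, 0 of the 8 tested genes had an adjusted p under 0.05, where 5.07% of all genes tested did (2.78% higher and 2.29% lower in OXA). At an unadjusted p under 0.05 there were 2, CAT and SOD2, both lower in OXA, beside 21.7% of all genes. DESeq2 and limma-voom also called 0 of 8 after adjustment, beside 9.24% and 4.84% of all genes. Each had 2 of 8 at an unadjusted p under 0.05, beside 19.9% of all genes in DESeq2 and 21.9% in limma-voom. Libraries that carry the same replicate number deviated together in all 3 pairs, and when that number entered the model as a block 5 of the 8 had an adjusted p under 0.05, beside 23.0% of all genes. GPX1 and PRDX1 were higher, where 12.1% of all genes were called higher, and CAT, SOD2 and GPX8 were lower, where 10.9% were called lower. All 8 genes are abundant. Among the 6479 genes with a mean of at least 1000 normalized counts, a group chosen after the values were seen, the block called 30.8%. With the block and the gene-specific factors of the deposited normalized values, the calls were GPX1 higher, beside 9.61% of all genes, and CAT lower, beside 8.50%. The calls of these 5 genes therefore rest on the pairing, and both values are given for each gene.

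**Figure D2:**
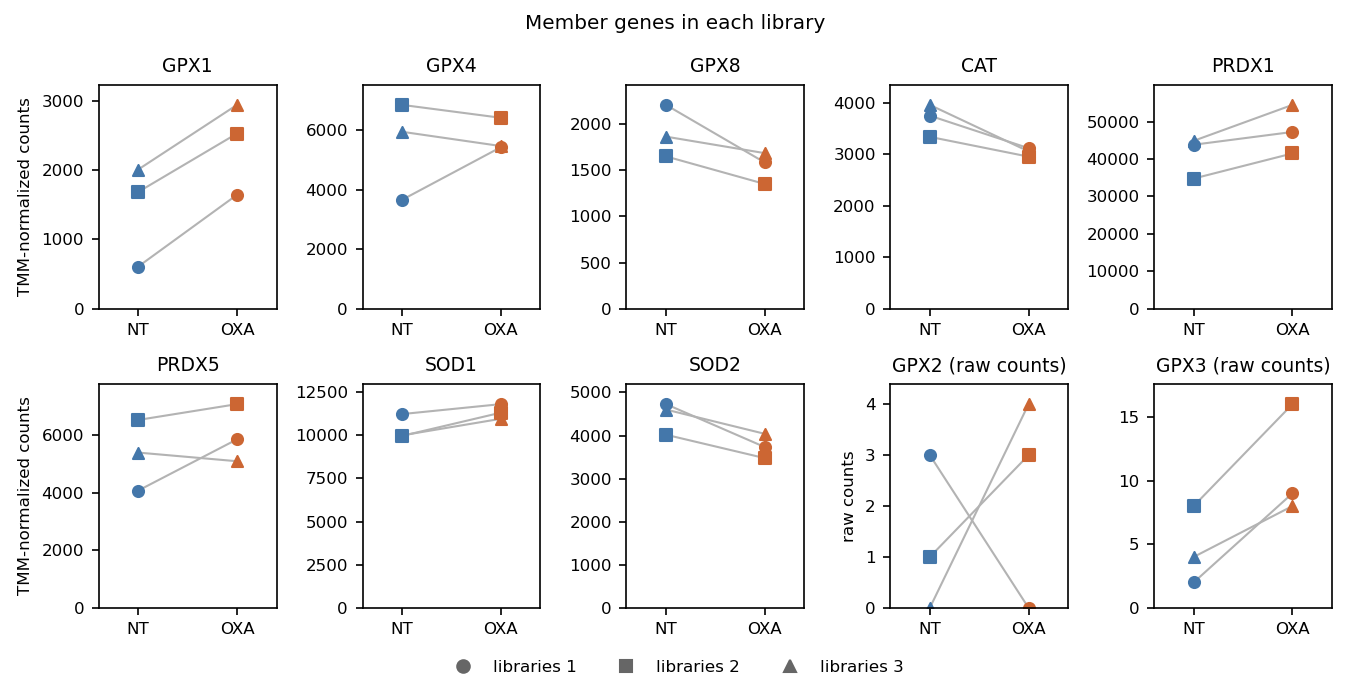
Values of the 10 genes in each library, with marker shape and connecting line giving the replicate number, as TMM-normalized counts for 8 genes and raw counts for GPX2 and GPX3. The 3 OXA values lie below the 3 NT values only for CAT, while GPX1 is higher in OXA in each of 3 pairs and spreads from 608 to 2010 in NT.

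Catalase was the only one of the 8 genes whose groups did not overlap, where 28.9% of all genes tested had groups that did not. CAT, on chromosome 11 (chr11:34438934-34472060, plus strand), had 3754, 3342 and 3964 normalized counts in NT and 3121, 2957 and 3059 in OXA. Every OXA library was below every NT library. The mean was 3687 ± 316 in NT and 3046 ± 83 in OXA (SD, n = 3 each). This is a log2 fold change of -0.28 (SE 0.092, adjusted p = 0.133, edgeR), or 0.826 times the NT level, with a 95% interval of -0.49 to -0.06. With the replicate block the log2 fold change was -0.27 (SE 0.058, adjusted p = 0.0253), and the 3 pairs gave -0.27, -0.18 and -0.37. Of the 8 genes, CAT had the smallest spread within OXA, with a coefficient of variation of 2.73%.

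Of the superoxide dismutases, SOD2 was called lower only with the block, and SOD1 was not called with or without it. SOD2, on the minus strand (chr6:159669069-159762529), had 4729, 4019 and 4603 normalized counts in NT and 3733, 3476 and 4040 in OXA. Only the second NT library fell within the OXA range, at 4019 against 4040 for the third OXA library. The log2 fold change was -0.25 (SE 0.1, adjusted p = 0.208, edgeR; 95% interval -0.48 to -0.01) and with the block -0.25 (SE 0.055, adjusted p = 0.0281). With the gene-specific factors of the deposited normalized values and the block, SOD2 was at -0.14 with an adjusted p of 0.173. Its locus overlaps WTAP and ACAT2 on the opposite strand, WTAP with 3580 to 4949 counts. Reads in the shared stretch cannot be told apart without the strand setting.

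SOD1, the copper and zinc enzyme on chromosome 21 (chr21:31659666-31668931, plus strand), had 11221, 9956 and 9990 normalized counts in NT and 11797, 11303 and 10949 in OXA. The first NT library lay inside the OXA range. The log2 fold change was 0.13 (SE 0.087, adjusted p = 0.454, edgeR; 95% interval -0.07 to 0.33), and with the block it was 0.13 (adjusted p = 0.108). SOD1 held 97.4% of the dismutase level per length in NT and 98% in OXA, shares that rest on the long SOD2 transcript.

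GPX1 had the largest fold change and the largest spread of the 8 genes. GPX1, on chromosome 3 (chr3:49357174-49358605, minus strand), had 608, 1686 and 2010 normalized counts in NT and 1645, 2530 and 2944 in OXA. The first OXA library lay within the NT range, and the first NT library was far below all others. The NT mean was 1435 ± 734 and the OXA mean 2373 ± 664, a log2 fold change of 0.73 (SE 0.41, adjusted p = 0.358, edgeR; 95% interval -0.22 to 1.67). With the block it was 0.84 (SE 0.18, adjusted p = 0.0245; 95% interval 0.40 to 1.27), or 1.79-fold. The 3 pairs gave 1.44, 0.59 and 0.55, highest in the first pair. Without the first NT library and without the block, the log2 fold change was 0.36.

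GPX8, on chromosome 5 (chr5:55160167-55167297, plus strand), had 2208, 1650 and 1864 normalized counts in NT and 1584, 1351 and 1685 in OXA. The second NT library lay just below the third OXA library, and the groups otherwise separated. The log2 fold change was -0.31 (SE 0.14, adjusted p = 0.247, edgeR; 95% interval -0.63 to 0.01), and with the block -0.30 (SE 0.079, adjusted p = 0.0433). The pairs were at -0.48, -0.29 and -0.15.

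GPX4, on chromosome 19 (chr19:1103982-1106791, plus strand), had 3658, 6849 and 5945 normalized counts in NT and 5427, 6415 and 5465 in OXA. All 3 OXA libraries lay within the NT range. The log2 fold change was 0.073 (SE 0.21, adjusted p = 0.882, edgeR; 95% interval -0.42 to 0.57), and with the block 0.11 (adjusted p = 0.58). The direction turned to -0.15 without the first NT library. It was also -0.15, with an adjusted p of 0.0389, with the block once each library's trends with GC content and length had been taken out. This setting was added after the values were known. The trends were fitted to each library's deviation from the mean of all 6 libraries. A difference between OXA and NT that goes with GC content or length was therefore taken out too.

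**Figure D3:**
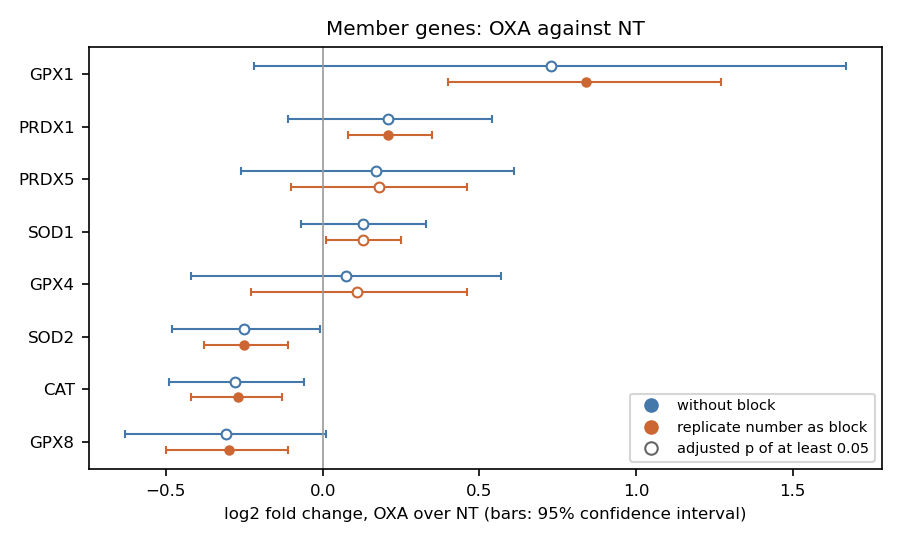
Log2 fold change of OXA over NT for the 8 tested genes, with 95% confidence intervals, without a block and with a block on replicate number; filled points have an adjusted p under 0.05. No interval without the block belongs to a filled point, and with the block GPX1 and PRDX1 are above 0 and SOD2, CAT and GPX8 below 0.

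PRDX1, on chromosome 1 (chr1:45510914-45542732, minus strand), had 43824, 34783 and 44871 normalized counts in NT and 47243, 41505 and 54482 in OXA. The second OXA library lay inside the NT range and the other two were above it. The log2 fold change was 0.21 (SE 0.14, adjusted p = 0.427, edgeR; 95% interval -0.11 to 0.54), and with the block 0.21 (SE 0.055, adjusted p = 0.041). The pairs were at 0.11, 0.25 and 0.28. MMACHC overlaps PRDX1 on the opposite strand, with 974 to 1199 counts.

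PRDX5, on chromosome 11 (chr11:64318121-64321811, plus strand), had 4071, 6521 and 5389 normalized counts in NT and 5848, 7070 and 5089 in OXA. The groups overlapped, and the pairs disagreed in direction at 0.52, 0.12 and -0.08. The log2 fold change was 0.17 (SE 0.19, adjusted p = 0.654, edgeR; 95% interval -0.26 to 0.61), and with the block 0.18 (adjusted p = 0.282). Over the 8 genes, 6 moved one way in all 3 pairs, 3 higher and 3 lower, where 61.3% of all genes tested did so, 33.7% higher and 27.6% lower.

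The genes with the widest spread among untreated libraries were those richest in GC. GPX4, GPX1 and PRDX5 have transcripts of 65%, 64.1% and 60.6% GC, above the upper quartile of 56.9% over all tested genes. In the first NT library they differed from the mean of the other NT libraries by -0.80, -1.59 and -0.54 on the log2 CPM scale. The other 5 genes, at 40.3% to 47.5% GC, differed from that mean by 0.04 to 0.33. With the block and the trends removed, GPX1 was at 0.60 (adjusted p = 1.92e-05) and PRDX1 at 0.19 (adjusted p = 0.00391). CAT was then at -0.22, SOD2 at -0.18 and GPX8 at -0.18, with adjusted p-values of 0.0108, 0.0128 and 0.0251, beside 39.7% of all genes called (24.6% higher and 15.1% lower). GPX1, PRDX1, CAT, SOD2 and GPX8 thus had the direction and the call of the block alone, while GPX4 and PRDX5, the latter at -0.047 (adjusted p = 0.537), changed sign.

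**Figure D4:**
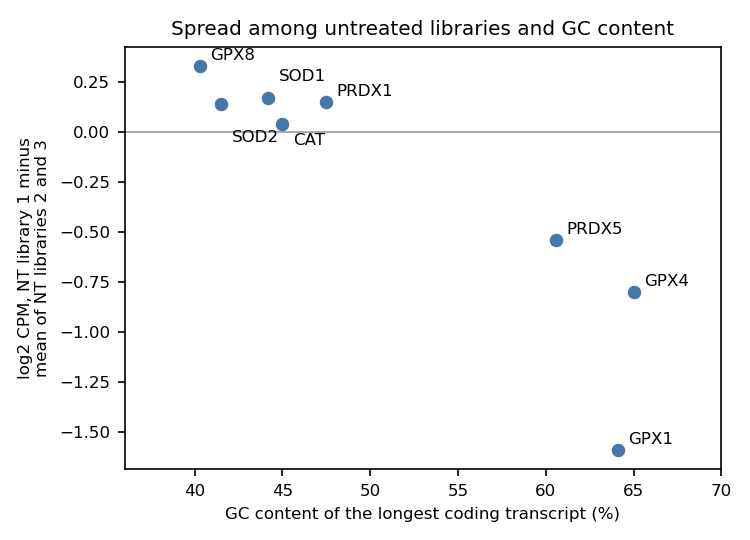
GC content of the longest coding transcript in percent (horizontal) against the log2 CPM of the first NT library minus the mean of the other NT libraries (vertical) for the 8 tested genes. GPX1, GPX4 and PRDX5 lie at 60.6% GC or more and between -1.59 and -0.54, and the other 5 lie between 0.04 and 0.33.

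Promoter windows of 300 bases, from 250 before to 50 after an annotated start, were searched for the antioxidant response element, a known control site of this enzyme class. RefSeq windows on GRCh38.p14 were at hand for 8 of the 10 genes, all but PRDX1 and SOD1, with 14 windows in all. The antioxidant response element core TGACNNNGC, on either strand, matched 1 of them, in GPX2, and 13.347% of 35116 promoter windows. The matched window is shown 5′ to 3′ on the strand of the gene, with the match in capitals.
GPX2: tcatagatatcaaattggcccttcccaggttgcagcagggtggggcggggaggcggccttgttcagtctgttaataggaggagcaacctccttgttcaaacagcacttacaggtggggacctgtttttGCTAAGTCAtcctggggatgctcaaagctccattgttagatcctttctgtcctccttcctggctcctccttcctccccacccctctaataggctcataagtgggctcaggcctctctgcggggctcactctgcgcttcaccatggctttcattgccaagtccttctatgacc
It lies at chr14:64942696-64942995 on the minus strand, with the match starting at -122 from the start site. A match is a description of letters, and the absence of one says only that they are not in the window.

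Of 4 lists of genes around these enzymes, 29 of 40 genes were tested, and 1 was called higher and 1 lower in edgeR, beside 2.78% and 2.29% of all genes, or 6 and 3 with the block, beside 12.1% and 10.9%. The other removal enzymes, 9 genes of which 5 were tested, had 0 called, also with the block, and a median log2 fold change of 0.11, beside 0.023 for all genes. Among them PRDX3, the mitochondrial peroxiredoxin, was at 0.051, PRDX6 at 0.11, PRDX2 at 0.14 and PRDX4, of the endoplasmic reticulum, at -0.14. With the block and trends removed, PRDX6 was called higher at 0.15 (adjusted p = 0.028), beside 24.6% of all genes. PRDX4 was then called lower at -0.22 (adjusted p = 0.00377), beside 15.1%. GPX5, GPX6 and SOD3 had 0 counts in all libraries, and GPX7 had 1 count in 1 library.

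The reducing partners of the peroxiredoxins and glutathione peroxidases, 11 genes all tested, had a median log2 fold change of 0.17. In edgeR only TXNRD3, a thioredoxin reductase with a glutaredoxin domain, was called. It fell from 758 ± 75.3 to 512 ± 42.7 normalized counts (log2 fold change -0.57, SE 0.13, adjusted p = 0.0472). It kept the call in 1 of 6 fits that left out a library, and had an adjusted p of 0.169 with the deposited factors. Its adjusted p was 0.00916 with the block, 0.0308 with the block and deposited factors, and 6.97e-05 with the block and trends removed. With the block the thioredoxins TXN (0.28, adjusted p = 0.0163) and TXN2 (0.33, adjusted p = 0.0302), the sulfiredoxin SRXN1 (0.20, adjusted p = 0.0347) and the glutaredoxins GLRX (0.31, adjusted p = 0.0317) and GLRX3 (0.25, adjusted p = 0.0337) were higher, 5 of 11 beside 12.1% of all genes. With the block and the deposited factors, SRXN1 (adjusted p = 0.0778) and GLRX3 (adjusted p = 0.0772) were no longer called. With the block and trends removed SRXN1 was called at 0.18 (adjusted p = 0.0116) and GLRX3 at 0.36 (adjusted p = 0.000141), beside 24.6% of all genes called higher. TXNRD1, the cytosolic thioredoxin reductase, went from 22230 to 24936 normalized counts and GSR, glutathione reductase, from 12259 to 13178. Neither was called in edgeR with or without the block, and both were with the block and trends removed, at 0.26 (adjusted p = 0.000724) and 0.16 (adjusted p = 0.0219).

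The selenocysteine machinery, a list of 7 genes linked by name or role to the amino acid of GPX1 to GPX4, had 0 called in edgeR and a median of -0.039. With the block SECISBP2, which binds the selenocysteine insertion element, was lower in OXA at -0.24 (adjusted p = 0.0351) and SEPHS1 at -0.19 (adjusted p = 0.0445), 2 of 7 beside 10.9% of all genes called lower. Both calls were lost with the deposited factors added to the block (adjusted p = 0.0709 and 0.114) and with the trends removed (adjusted p = 0.0509 and 0.0785). SEPSECS was called lower with the block and deposited factors, at -0.44 (adjusted p = 0.0399), beside 8.50% of all genes. Its adjusted p was 0.0753 with the block and 0.16 with the block and trends removed. Among 13 genes of NADPH oxidases and their partners, 6 were tested. DUOX1, which makes hydrogen peroxide at the cell surface, rose from 285 ± 35.9 to 444 ± 33.6 normalized counts (log2 fold change 0.64, SE 0.14, adjusted p = 0.0492, edgeR), and kept the call in 1 of 6 fits that left out a library. Its adjusted p was 0.0812 with the deposited factors and 0.0211 with the block. It was 0.0222 with the block and deposited factors, and 0.000466 with the block and trends removed. NOX3 and NOX4 had 0 counts in all libraries.

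**Figure D5:**
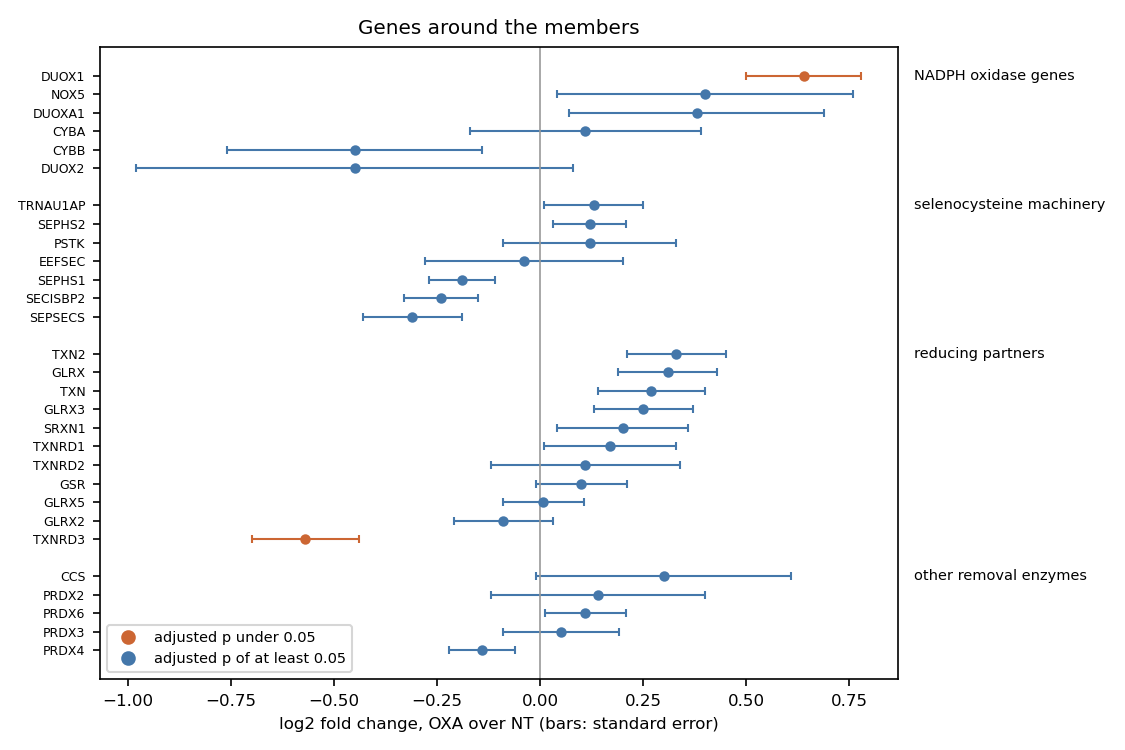
Log2 fold change of OXA over NT with standard errors from edgeR for 29 tested genes of the 4 lists around the enzymes. TXNRD3, at -0.57, and DUOX1, at 0.64, are the 2 with an adjusted p under 0.05.

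Over the 6 libraries, the genes whose log2 levels most resembled those of CAT, out of 12066 searched, were SH3BGRL (r = 0.988), GPR137B (r = 0.987) and FAM45A (r = 0.987). The 6 points share the same groups and libraries, and the likeness is a description.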

How the data were processed

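RNA-seq of 3 NT and 3 OXA libraries was analysed from a table of gene counts deposited by the authors, who, per their methods, mapped reads to GRCh38 with STAR and compared groups with DESeq2. The submitters' processing notes also list Trimmomatic 0.32, STAR 2.7.5b, RSEM 1.3.3 and DESeq2 2.13, and give neither the counter nor its strand setting. The deposited normalized values (unit signal) are the counts times a factor that differs by gene and library, and were used only as an alternative. Groups came from sample titles. Genes were filtered with filterByExpr (minimum count 10), scaled by TMM and tested with edgeR 4.0.16 in R 4.3.3 (quasi-likelihood test, Benjamini-Hochberg over 13727 genes, threshold 0.05). The edgeR fits with and without the block, DESeq2 and limma-voom were tested on simulated data without GC or length trends. The other settings, among them those with deposited factors or with trends removed, were not tested in this way. Same-numbered libraries correlated in their deviations from the group means at 0.547, 0.542 and 0.307, above the limit of 0.1, so the replicate block is printed where it changes a call. Other pairs lay between -0.467 and 0.0904, but deviations within a group sum to 0, so these values are not independent of the first. Correlations of the deviations with GC content were -0.72 and -0.44 in the first pair, 0.63 and 0.51 in the second, and 0.36 and -0.10 in the third. The part of GC content in the pairing was not tested. The pairing comes from the replicate numbers in the titles. Lengths, GC content and positions came from GENCODE 44 (27732 genes matched), and promoter windows from RefSeq. Of the matched genes, 29 were matched by symbol only, because their identifier was not in that release. SOD2 is among them, so its lengths, position and overlaps are those of the GENCODE entry with that symbol. Named genes are the 10 enzymes, list genes called or among the most abundant, CDKN1A, MDM2 and the 3 genes most like CAT. Genes at or near 0 counts, the keratins, CDH1, CD68, COL1A1 and genes that overlap an enzyme's locus were named after their values were seen. So were list genes called only in a fit with the block. The members and lists were chosen with earlier results of these data known. Exact permutation of 3 against 3 cannot go below 0.1 and was not used. Alternatives changed the normalization, filter, tool, block or library set. The floor of 3 counts covers counting error only.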

Additional observations from a re-analysis of the deposited data

How the results depend on the processing

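The 0 calls among the 8 enzymes held with 7 other settings without a block and in all fits that left out 1 library (0 to 0 in each direction). Over the 7 settings, adjusted p-values were 0.0809 to 0.167 for CAT and 0.126 to 0.49 for SOD2. With 1 library left out they were 0.0805 to 0.352 for CAT and 0.119 to 0.499 for SOD2. With the replicate block 2 enzymes were called higher and 3 lower. With the block and the deposited factors 1 (GPX1) and 1 (CAT) were called, and with the block and GC and length trends removed 2 and 4. GPX4 turned to -0.15 and PRDX5 to -0.047 in that last setting, and GPX4 to -0.15 without the first NT library and to -0.0092 without the second OXA library, in a range of -0.15 to 0.24 over the 6 fits with a library left out. GPX1 ranged from 0.36 without the first NT library to 1.03 without the third. With 1 library left out, PRDX1 ranged from 0.075 (without the second NT library) to 0.31, PRDX5 from 0.011 (without the first NT library) to 0.31, SOD1 from 0.066 (without the second NT library) to 0.19, SOD2 from -0.35 to -0.19, CAT from -0.37 to -0.25, and GPX8 from -0.44 to -0.19 (without the first NT library). The cause of these changes was not tested. Enzymes with groups that did not overlap numbered 3 with upper-quartile scaling and 3 in the deposited values, against 1, and 1 to 4 with a library left out. The share of all genes without overlap, 28.9%, was taken only for the main setting. The counts from the other settings thus have no share beside them and are not read as a result about the enzymes.

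Over all genes, 381 were higher and 315 lower. The deposited factors gave 241 and 200, DESeq2 633 and 635, the block 1664 and 1493, the block with deposited factors 1319 and 1167, and the block with trends removed 3371 and 2079. Lower calls numbered 493 with upper-quartile scaling, 479 at a CPM of at least 1 and 198 with a fold above 1.5. Upper-quartile scaling and the CPM filter moved the share of higher calls from 54.7% to 41.4% and 43.1%. Leaving out a library gave 66 to 623 higher and 19 to 571 lower, lowest without the first OXA library and highest without the first NT library. In the 4 lists, 1 higher and 1 lower became 6 and 3 with the block, 4 and 2 with the block and deposited factors, and 9 and 2 with trends removed. Higher calls were 0 with upper-quartile scaling, deposited factors or no filter, lower calls were 0 with deposited factors, limma-voom or a fold above 1.5, and each was 0 to 1 with a library left out. The PRDX1 share of 54% was 60.5% with MANE Select lengths. Among the enzymes and the 4 lists, the block changed no call other than those given in the results.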
